A study of Mus musculus with 54 samples.

Results

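Interferon-stimulated genes are the genes that cells switch on when interferons bind their receptors, and 44 of them, listed by symbol, were followed through RNA-seq of 4T1 cells. The table holds 23454 genes with a usable symbol, and all 44 listed genes were found in it. Membership was set by gene symbol, with no threshold on a measured level. The 4T1 line comes from a mammary carcinoma of a BALB/c mouse and spreads to the lung from the mammary gland. The study profiled 54 libraries, 2 for each of 23 clones and for each of 4 specimens taken from mice.

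The specimens were 2 lung metastases, Lung_1 and Lung_2, and 2 orthotopic tumors, Tumor_1 and Tumor_2. Clones E and T carry the label intravasating, which refers to the passage of tumor cells into the blood, and the other 21 clones carry the label non-intravasating. The protocols describe growth of cells in DMEM with bovine serum, and no group carries a named genetic change, transgene or drug treatment. Each clone was grown out of 1 sorted cell, so a difference between clones E and T and the others rests on 2 clones. Whether the specimens were depleted of host cells ahead of RNA isolation is not stated in the labels. The labels also do not say that the 2 libraries of a clone, lettered A and B, came from separate cultures, so tests between clones measure a spread that may be technical. Recovered reads per library numbered 16328000 to 20369000 in the lung metastases, 12183000 to 17370000 in the tumors, 15581000 to 31610000 in clones E and T and 8849000 to 27305000 in the other clones, to the nearest 1000. Levels are given as normalized counts, read counts scaled by the authors for library size, and a clone or specimen value is the mean of its 2 libraries.

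Type I interferons bind the receptor of Ifnar1 and Ifnar2, whose kinases Jak1 and Tyk2 activate a complex that contains Stat2 and Irf9. The complex binds the interferon-stimulated response element, or ISRE, in the promoters of antiviral genes, while interferon gamma acts at the gamma-activated site, or GAS. The products sense foreign nucleic acid, block translation, degrade RNA, modify proteins with ISG15 or ADP-ribose, or attack the membranes of intracellular pathogens, and tumor cells can express them without any virus.

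The promoters of 7 genes are shown because they hold the letters of these elements near the start of transcription. They come from RefSeq for the mouse build GRCm38.p6, and each window runs for 180 bases in the direction of the gene, 170 before and 10 after the annotated start. Isg15 lies at chr4:156200809-156200988 on the minus strand, Ifit1 at chr19:34640719-34640898 on the plus strand and Ifit3 at chr19:34583359-34583538 on the plus strand. Rsad2 lies at chr12:26456443-26456622 on the minus strand and Irgm1 at chr11:48871411-48871590 on the minus strand. Igtp lies at chr11:58199386-58199565 and Irf1 at chr11:53769844-53770023, both on the plus strand. Capitals mark ISRE letters, which are GAAA, any 2 bases and GAAA on either strand (TTTC, any 2 bases and TTTC when read on the other one), and GAS letters, which are TTC, any 3 bases and GAA and read the same way on both strands.
Isg15: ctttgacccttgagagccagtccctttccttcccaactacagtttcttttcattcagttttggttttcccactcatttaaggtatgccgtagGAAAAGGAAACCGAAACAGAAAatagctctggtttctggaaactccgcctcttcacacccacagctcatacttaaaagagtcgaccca
Ifit1: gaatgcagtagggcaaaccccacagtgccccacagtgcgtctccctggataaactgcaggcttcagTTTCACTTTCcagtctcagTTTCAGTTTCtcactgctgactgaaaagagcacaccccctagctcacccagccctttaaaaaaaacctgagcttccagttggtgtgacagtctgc
Ifit3: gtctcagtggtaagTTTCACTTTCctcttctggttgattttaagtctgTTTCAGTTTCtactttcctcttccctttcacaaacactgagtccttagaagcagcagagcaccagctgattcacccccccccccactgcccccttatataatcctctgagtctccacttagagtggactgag
Rsad2: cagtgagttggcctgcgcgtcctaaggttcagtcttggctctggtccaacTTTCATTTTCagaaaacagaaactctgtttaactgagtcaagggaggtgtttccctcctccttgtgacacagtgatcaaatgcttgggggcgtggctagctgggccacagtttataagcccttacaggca
Irgm1: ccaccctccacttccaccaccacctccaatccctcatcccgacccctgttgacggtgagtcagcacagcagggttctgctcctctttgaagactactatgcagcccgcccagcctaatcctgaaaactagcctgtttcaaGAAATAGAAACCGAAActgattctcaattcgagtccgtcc
Igtp: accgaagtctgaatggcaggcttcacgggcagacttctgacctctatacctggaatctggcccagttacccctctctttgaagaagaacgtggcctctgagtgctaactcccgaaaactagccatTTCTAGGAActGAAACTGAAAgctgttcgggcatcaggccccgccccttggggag
Irf1: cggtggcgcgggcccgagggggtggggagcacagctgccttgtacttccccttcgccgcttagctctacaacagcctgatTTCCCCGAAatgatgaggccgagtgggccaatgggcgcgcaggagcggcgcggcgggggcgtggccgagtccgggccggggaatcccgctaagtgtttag
Isg15 holds 3 overlapping ISRE matches, Irgm1 2 overlapping ones, Ifit1 and Ifit3 2 separate ones each, Rsad2 1, Igtp 1 of each element, and Irf1 a GAS match with no ISRE match.

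A promoter entry of 300 bases, 250 before and 50 after the start, was found for 33 of the 44 genes. The ISRE letters were in 15 of the 33, or 45.5%, against 3.99% of the promoters of all 27025 genes in the same table. The GAS letters were in 8 of the 33, or 24.2%, against 9.55% of all promoters. Both were in 4 genes (Bst2, Eif2ak2, Igtp and Oas1a) and neither in 14, among them Ifi44, Irf7, Irf9 and Oasl2. In 12 of the 15 genes the ISRE match began before the start. A match describes letters in a window and not a bound site, and a window without them says only that these letters are not in it. The 11 genes without an entry were Oas2, Rtp4, Dhx58, Mx1, Mx2, Usp18, Ifi27l2a, Parp9, Parp14, Zbp1 and Gm4951.

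Each of the 44 genes differed between the 23 clones, and 1 clone, clone G, stood highest for nearly the whole list. In a moderated F-test over the 46 clone libraries with limma and Benjamini-Hochberg adjustment at 0.05, 44 of 44 genes passed, as did 95.1% of all genes tested, so passing this test does not set these genes apart. The size of the difference was larger: on the deposited log2 scale the span between the lowest and the highest clone had a median of 4.08 over the 44 genes, with a range of 1.51 to 7.14, against a median of 1.15 over all genes. Without clone G the median span was 1.94 for the 44 genes and 1.09 for all genes. Clone G was the highest clone for 43 of the 44 genes, the exception being Oasl1. The lowest clone was J for 13 genes, H for 8, U for 6, V and Q for 5 each, M for 3 and I and O for 2 each.

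**Figure D1:**
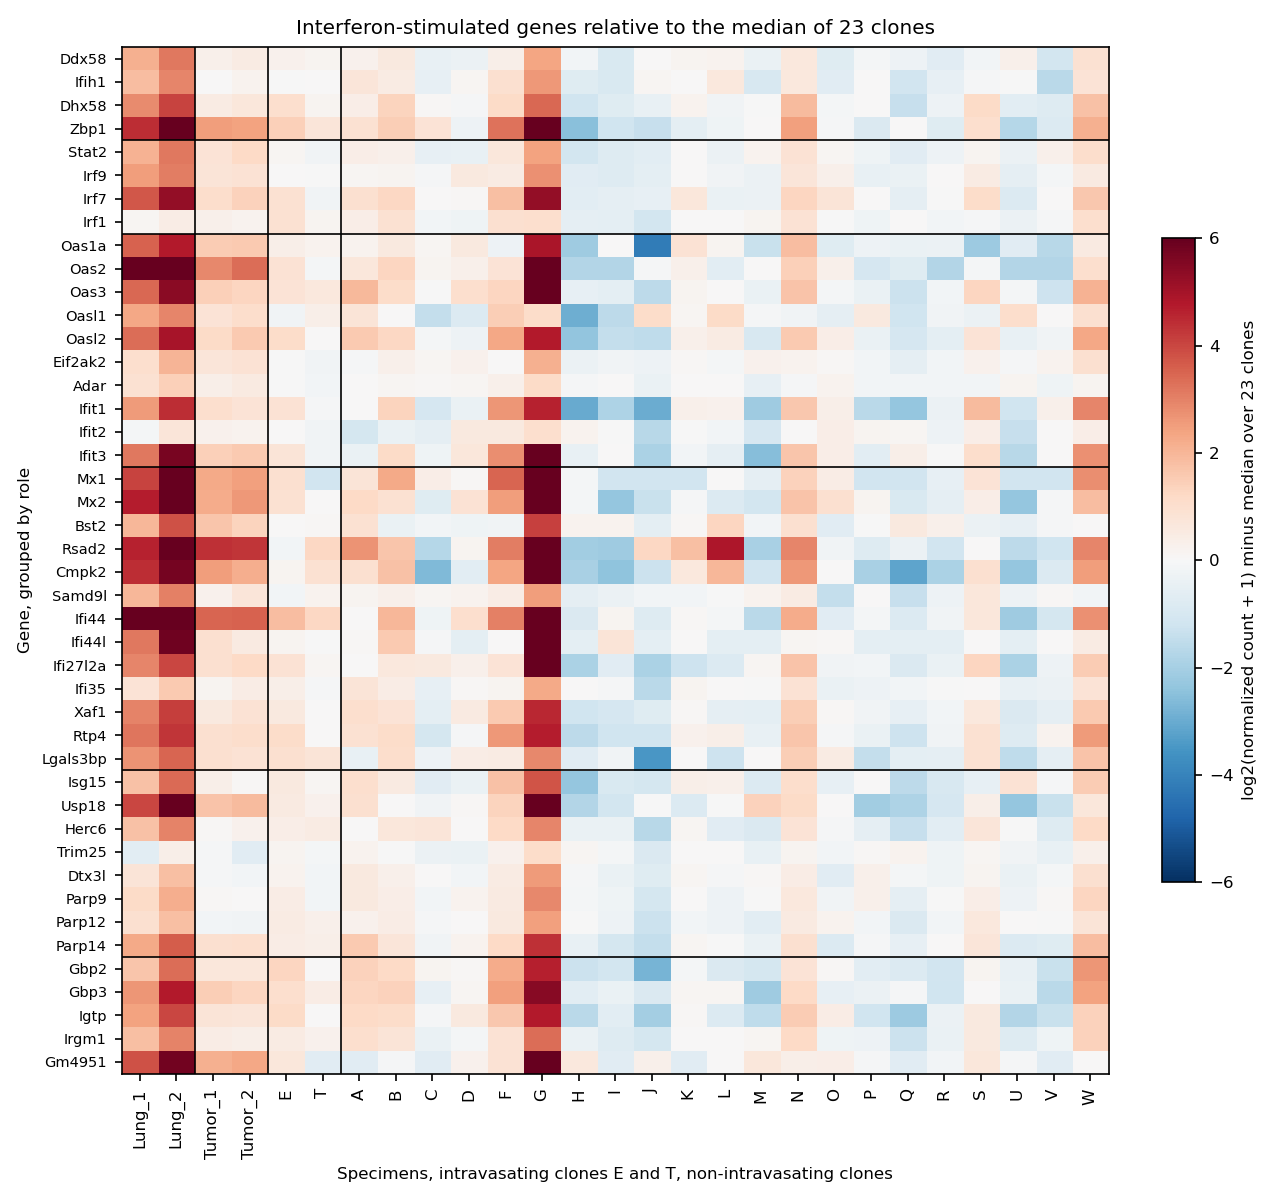
Level of each of the 44 genes (rows, grouped by role) in each lung metastasis, tumor and clone (columns) as log2(normalized count + 1) minus the median of the 23 clones, with red above and blue below that median. Clone G and Lung_2 are dark red for most genes, Lung_1 less so, and clones E and T and most other clones lie nearer the median. The tumors lie near it for many genes and well above it for some, among them Rsad2, Ifi44, Oas2 and Zbp1.

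Among the sensors of nucleic acid, the spans over the clones were widest for Zbp1, which binds Z-form nucleic acid and starts cell death. Zbp1 had 1358 normalized counts in clone G, a median of 13.4 over the 23 clones and 1.51 in clone H. Dhx58, the LGP2 helicase, ran from 26.3 in clone Q over a median of 69.5 to 756 in clone G. The RNA helicases Ddx58 (RIG-I) and Ifih1 (MDA5), which detect viral RNA in the cytoplasm, were well expressed in every clone. Ddx58 lay between 332 in clone V and 3693 in clone G with a median of 717, and Ifih1 between 104 in clone V and 1929 in clone G with a median of 317.

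The transcription factors of the pathway were present in all clones. Irf7, which drives interferon genes themselves, ran from 15.1 in clone U over a median of 27.1 to 1080.2 in clone G. Stat2 ran from 216 in clone H over a median of 472 to 2503 in clone G, and Irf9, its DNA-binding partner, from 84.3 in clone I over 147 to 1001 in clone G. For these 3 genes the next clone after G was far below it, at 97.3 in F for Irf7, 982 in W for Stat2 and 241 in N for Irf9. Irf1, a factor that responds quickly to interferon gamma and to other cytokines, behaved differently: it ran from 423 in clone J over 921 to 1883 in clone G, and clones W (1866), F (1810.1) and E (1760.4) came close to G.

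The oligoadenylate synthetases, which make the short adenylate chains that activate RNase L, had some of the widest spans. Oas3 ran from 18.9 in clone J over a median of 58.2 to 6333 in clone G, and Oas1a from 3.23 in clone J over 76.0 to 2273 in clone G. Oas2 was almost silent outside clone G, with 1808 normalized counts in G, a median of 2.36 and at most 8.07 in any other clone. Oasl2 ran from 51.3 in clone H over 265 to 7166 in clone G, with 1343 in both W and F. Oasl1, which in mice holds back the translation of Irf7, was the exception of the family. It was highest in clone F at 538, with 432 in L, 416 in G, 414 in J and 400.3 in U, a median of 194 and 24.2 in clone H.

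The Ifit proteins bind foreign RNA and block its translation, and their genes lie side by side on chromosome 19. Ifit1 ran from 14.1 in clone H over 122 to 2995 in clone G, and Ifit3 from 1.29 in clone M over 12.4 to 1575 in clone G. Ifit2 spanned much less, from 135 in clone J over 426 to 849 in clone G. Eif2ak2, the PKR kinase that halts translation on double-stranded RNA, had 910.2 in clone Q, a median of 1308 and 5728 in clone G. Adar, which edits double-stranded RNA, had the narrowest span of all, with 557 in clone M to 1705 in clone G around a median of 779. Oas1a, Ifit1, Ifit3 and Ifi27l2a have close copies in the mouse genome, and how reads shared with a copy were counted is not given in the sources used here, so their values are uncertain to that extent.

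Several antiviral effectors had low medians outside clone G. Mx1 and Mx2, dynamin-like GTPases that trap viral particles, had 1083 and 1165 normalized counts in clone G, against medians of 1.22 and 3.94 over the 23 clones and at most 23.7 and 27.3 in any other clone, F for both. Ifi44, a little understood interferon-induced protein, had 6292 in clone G, 149 in clone F, a median of 17.6 and 3.31 in clone U, the widest span of the 44 genes. Its neighbour Ifi44l had 175 in clone G and at most 3.34 elsewhere, Ifi27l2a had 278 in G and at most 11.4 elsewhere, and Gm4951 had 195 in G and at most 1.89 elsewhere. A level of 0, seen for some of these genes in single clones, means that neither library had a read, and 3 reads, the count that 0 reads allow, equalled 1.53 to 5.85 normalized counts per library, a limit that covers counting error only.

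Rsad2 (viperin) and Cmpk2 work on the same nucleotide pathway and are neighbours on chromosome 12. Rsad2 ran from 1.5 in clone I over a median of 10 to 2051 in clone G, and clone L stood second with 320.3. Cmpk2 ran from 0.512 in clone Q over 12.5 to 1482 in clone G, with 79.9 in N and 52.5 in L. Bst2 (tetherin), which holds budding virus on the cell surface, ran from 73.7 in clone O over 117 to 2037 in clone G. Rtp4 ran from 37.1 in H over 113 to 2991 in G, Xaf1, a promoter of apoptosis, from 27.9 in H over 66.1 to 1532 in G, and Ifi35 from 83.4 in J over 259 to 1270.4 in G. Samd9l ran from 131 in O over 354 to 2017 in G, and the secreted glycoprotein Lgals3bp from 92.2 in J over 1051 to 7842 in G.

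Isg15, the ubiquitin-like protein that gives its name to ISGylation, ran from 34.0 in clone H over 171 to 2373 in clone G. Usp18, which removes ISG15 from its targets and restrains the type I receptor, ran from 3.18 in U over 19.8 to 1740.1 in G, and Herc6, the ligase that attaches ISG15 in mice, from 85.0 in J over 268 to 2017 in G. The ligase Trim25 was high in every clone, from 2888 in J over 5223 to 11145 in G. Parp9 and Dtx3l act as a complex, and both were lowest in clone J, Parp9 running from 189 over 397 to 2944 in G and Dtx3l from 385 over 640.5 to 3736 in G. The ADP-ribosyl transferases Parp12 and Parp14 ran from 324 over 788 to 4318 and from 123 over 334 to 6913, again between clones J and G.

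The interferon-induced GTPases act on the membranes around intracellular pathogens. Gbp2 ran from 16.5 in clone J over 119.9 to 3029 in clone G, with 767 in W and 569 in F. Its neighbour Gbp3 ran from 13.2 in M over 62.2 to 2819 in G. Igtp ran from 25.2 in Q over 117 to 3225 in G and Irgm1 from 80.9 in Q over 197 to 2022 in G. Set against exon length, which allows levels of different genes to be compared, the highest median levels belonged to Trim25 with 908 normalized counts per kb, Lgals3bp with 369, Eif2ak2 with 256, Irf1 with 232 and Isg15 with 227. In clone G the order changed to Isg15 with 3138 per kb, Lgals3bp with 2755, Bst2 with 2256 and Trim25 with 1937.

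Clone G stood above the mean of the other 22 clones in all 44 genes. Against the mean of the other 22 clones in the limma fit of 46 libraries, 44 of 44 genes were higher in clone G, where 29.4% of all genes tested were higher, and the median difference was 3.18 on the deposited log2 scale. Ifi44l, Oas2 and Gm4951 reached the level for testing only through the libraries of clone G and so had to be higher there; of the other 41 genes 41 were higher, where 28.9% of all genes that reached the level without clone G were. Both libraries of clone G lay above every library of the other clones for 42 of the 44 genes, which held for 7.06% of all genes, and the exceptions were Oasl1 and Irf1. For Ifi44l, Oas2 and Gm4951, which are among the 42, this was set in advance by the level for testing. Isg15 had 2172 and 2573 normalized counts in clone G, against a median of 168 and a highest value of 580.1 in the other clones, a difference of 3.40 ± 0.13 (SE, adjusted p = 7.99e-21, limma). Ifit1 had 3376 and 2614 in clone G, against a median of 119.7 and a highest value of 949, a difference of 4.05 ± 0.12 (adjusted p = 4.34e-24, limma). Neither gene overlapped between clone G and the other clones. Gbp2 had 3224 and 2835 in clone G, against a median of 115 and a highest value of 767, a difference of 4.06 ± 0.12 (adjusted p = 1.11e-24, limma). Irf7 had 1023 and 1138 in clone G, against a median of 27.1 and a highest value of 97.3, a difference of 3.69 ± 0.10 (adjusted p = 3.80e-25, limma). Gbp2 in clone G was 26.4 times its median in the other clones and Irf7 39.9 times. Stat2 had 2606 and 2400.3 in clone G, against a median of 441 and a highest value of 982, a difference of 2.31 ± 0.09 (adjusted p = 2.17e-20, limma). Irf1 had 2033 and 1733 in clone G, against a median of 909.6 and a highest value of 1866, a difference of 0.90 ± 0.09 (adjusted p = 2.17e-10, limma). Irf1 was thus called in clone G while its libraries, at 2033 and 1733, overlapped those of clones E (up to 2044), W (2014), F (1931) and B (1869).

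The genes with the largest differences in clone G were Ifi44 (6.35 ± 0.12, SE), Oas3 (5.60 ± 0.12), Oas2 (5.51 ± 0.10), Rsad2 (4.92 ± 0.15), Mx1 (4.84 ± 0.11), Usp18 (4.71 ± 0.13) and Mx2 (4.70 ± 0.10) on the deposited log2 scale, which understates the ratio of counts for low genes. In counts, clone G exceeded the median of the other 22 clones 375-fold for Ifi44, 217-fold for Rsad2, 147-fold for Cmpk2, 128-fold for Ifit3, 109-fold for Oas3 and 88.8-fold for Usp18. At the other end the ratio was 2.01 for Ifit2, 2.07 for Irf1, 2.15 for Trim25 and 2.21 for Adar and Oasl1. By role, the median difference in clone G was 4.16 for the 10 RNA-directed proteins, 4.06 for the 5 GTPases, 3.62 for the 13 other effectors, 2.65 for the 8 genes of ISG15, ubiquitin and ADP-ribose, 2.51 for the 4 sensors and 2.34 for the 4 transcription factors. These medians include Oas2, Ifi44l and Gm4951, and the ranking above includes Oas2, which reached the level for testing only through clone G. When the medians of all libraries were set equal, the median difference over all genes in this contrast moved by -0.11.

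**Figure D2:**
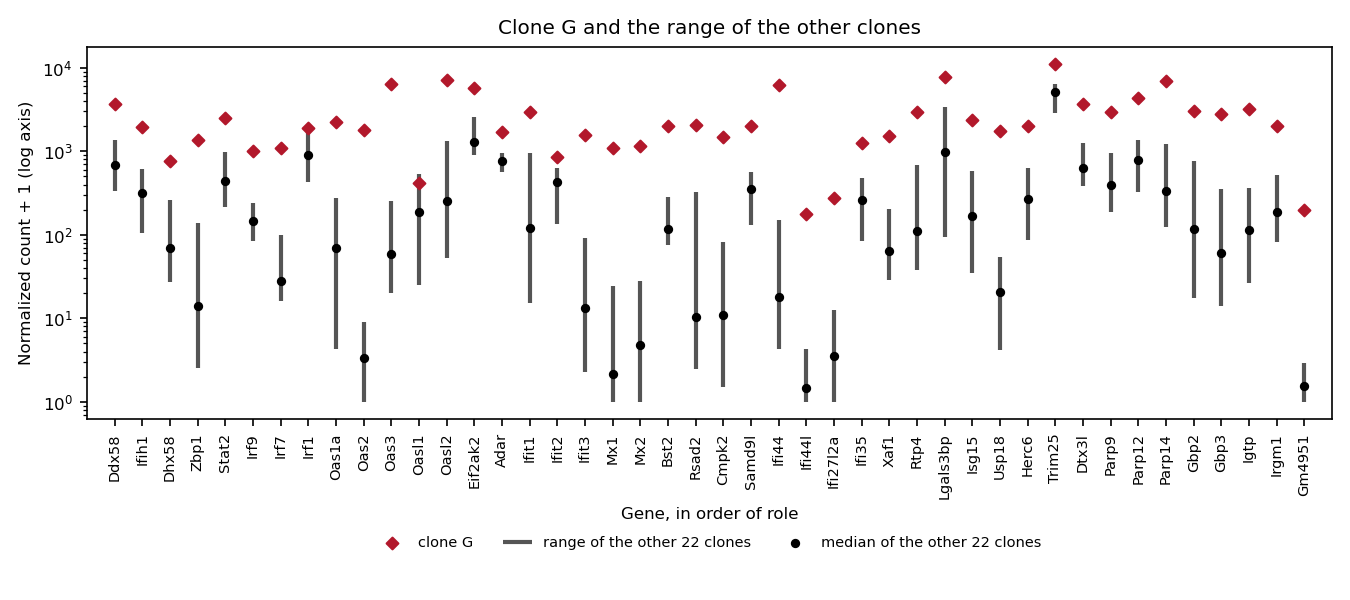
Level of each of the 44 genes in clone G (diamonds) and in the other 22 clones (bars from the lowest to the highest clone, dots at the median), as normalized count + 1 on a log axis. The diamond lies above the bar for 43 genes and inside it for Oasl1.

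Clone G also differed in genes outside the list that mark other cell types, and the part of these in its interferon-stimulated genes was not tested. Of the leukocyte markers, Cd53 reached 239 normalized counts in clone G, while Ptprc (CD45) had 0.464 and Laptm5 none, and 2 of the 6 listed leukocyte markers were at 0. The summed level of these 6 markers was 266 in clone G, against 5.14 to 34.5 in the other 22 clones. Of 10 macrophage markers, Cd14 reached 1699 in clone G, while Lyz2 had 1.31 and C1qa none, and their sum was 2232 in clone G, against 186 to 412 in the others. The 6 neutrophil markers summed to 906 in clone G, against 0.657 to 95.3 in the others, and 2 of them were at 0 in clone G. Most of that sum was the calprotectin subunit S100a8, at 855. The epithelial markers Krt8, Krt18, Epcam and Cdh1 were all lower in clone G, with a sum of 12596 against 16173 to 66719.

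Clones W, F and N had the most higher genes after clone G. In clone W 37 of the 44 genes were higher than the mean of the other 22 clones and none was lower, with 24.3% of all genes higher. Clone F had 36 higher and 1 lower (Bst2), with 23.8% of all genes higher, and clone N had 34 higher and none lower, with 19.7% of all genes higher. The median differences were 0.86 in W, 0.57 in F and 0.54 in N. Ifit1 gave the largest difference in W, 2.39 ± 0.12 with 949 normalized counts, and Rtp4, which binds viral RNA, reached 671 in W and 683 in F. Second place after clone G went to F for 15 genes, to W for 15 and to N for 7. Oas2 did not pass in W (0.02 ± 0.10, adjusted p = 0.889, limma) or in F (-0.02 ± 0.10, adjusted p = 0.920). It reached the level for testing only through clone G, which also enters the mean that W and F were set against. Its libraries held few reads, with 8.02 and 3.53 normalized counts in W and 4.98 and 4.79 in F. The median of the clones other than G was 2.31.

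At the low end, clone Q had 37 of 44 genes lower, with 25.7% of all genes lower, clone J 35 lower, with 29.0% of all genes lower, and clone H 35 lower, with 21.7% of all genes lower. The median differences were -0.65 in Q, -0.78 in J and -0.62 in H. The largest of them was that of Lgals3bp in clone J, -3.07 ± 0.10, where the gene had 92.2 normalized counts against a median of 1051 over the 23 clones. Each of these 3 clones had 1 gene that was higher, Trim25 in Q, Oasl1 in J and Ifit2 in H. Clones U and I had 32 lower genes each, R and M 29 each, P and V 28 each, C 26, O 21 and L 20. Clones A and B had 20 higher genes each, S 14 and E 11, and T had 3 higher and 10 lower. Over all 23 clone contrasts and all genes, 20.0% were higher and 20.2% lower, and clone G raised the mean against which the other clones were set. With clone G left out of that mean, clone B had 31 higher genes in place of 20, clone A 27 in place of 20 and clone E 22 in place of 11. Clone D had 7 lower genes in place of 17 and clone K 0 lower in place of 9. Clone T then had 8 higher and 3 lower genes, and the lower genes numbered 9 in L, 18 in P, 19 in R and 4 in S. The most lower genes were then in J with 34, followed by U with 31, I with 30, H with 29 and Q with 28. The shares over all genes with clone G left out of the mean are not given here. These recounts are therefore not set against a background, and no result about clone T is read from them.

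**Figure D3:**
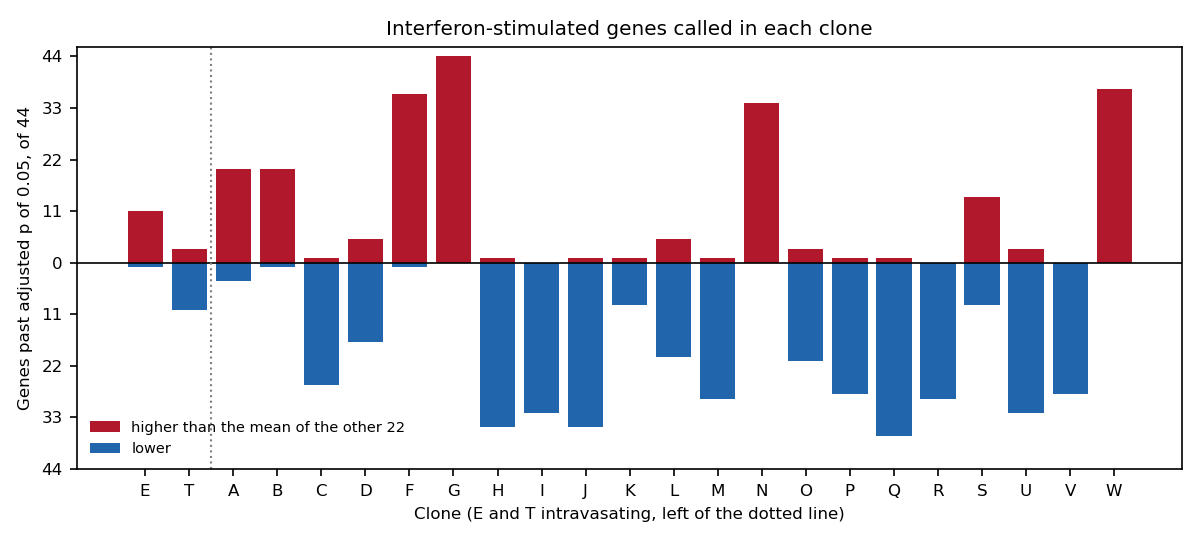
Number of the 44 genes that were higher (red, above 0) or lower (blue, below 0) in each clone than the mean of the other 22 clones, at an adjusted p of 0.05 in limma. Clones G, W, F and N have the most higher genes, with 44, 37, 36 and 34, and clones Q, J and H the most lower genes.

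Single genes broke with the ranking of clones. Clone L was below the others for 20 genes (9 with clone G left out of the mean), yet Rsad2 was higher there by 2.35 ± 0.15 (adjusted p = 6.46e-15, limma), Oasl1 by 0.97 ± 0.10, Bst2 by 0.78 ± 0.12, Cmpk2 by 0.63 ± 0.11 and Ifih1 by 0.56 ± 0.11, and these were the only 5 higher genes in L. Clone M had 29 lower genes, while Usp18 was higher there by 0.50 ± 0.13 with 53.1 normalized counts. Oasl1 was higher in J by 0.91 ± 0.10 although J had 35 lower genes.

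Across clones most pairs of the genes correlated positively, with a few genes as exceptions. Over the 946 pairs of the 44 genes, Pearson's r between clone means had a median of 0.83 over the 23 clones and of 0.63 without clone G, and Spearman's rho had medians of 0.68 and 0.63. Without clone G, r ran from -0.29 to 0.95 and rho from -0.36 to 0.95. Values for pairs of other genes are not given here, so these are not read as particular to the list. Without clone G, Xaf1 and Gbp2 had the highest median r with the other genes, 0.80 each, followed by Irf7 with 0.79. Bst2 had the lowest, 0.05, and Oasl1 (0.28), Gm4951 (0.29) and Ifit2 (0.33) were also low. The closest pairs were Oasl2 with Rtp4 (r = 0.95), Ifit1 with Rtp4 (0.95), Irf7 with Xaf1 (0.94) and Oas3 with Parp14 (0.94). Some neighbours on a chromosome were each other's closest partner, Gbp2 with Gbp3 on chromosome 3 (0.92) and Parp9 with Dtx3l on chromosome 16 (0.90). These values describe 22 clones that share a parent line, each pair of genes measured in the same libraries.

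The lung metastases stood above the cultured clones for most of the genes. In the fit of 27 clone and specimen means, 35 of the 44 genes were higher in the lung metastases than in the 23 clones and none was lower, where 12.4% of all genes were higher and 6.34% lower. The median difference was 2.30 for the 44 genes and 0.06 for all genes. The 9 genes that did not pass were Irf1, Ifit2, Trim25, Mx1, Ifi35, Ifi27l2a, Parp12, Dtx3l and Gbp2. In bulk RNA of a specimen, fewer cells of a type and less RNA per cell cannot be told apart.

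Ifi44 had 1803 normalized counts in Lung_1 and 8673 in Lung_2, against a median of 17.6 in the clones, a difference of 5.42 ± 0.99 (SE, adjusted p = 0.000243, limma). Oas2 had 327 and 1666 in the lung metastases, against a median of 2.36 in the clones, a difference of 4.06 ± 0.80 (adjusted p = 0.000597, limma). Both genes lay above all clones other than G in each lung metastasis. Oasl2 had 2709 and 8278 in the lung metastases, against a median of 265, a difference of 3.52 ± 0.90 (adjusted p = 0.00635, limma). Oas1a had 879.9 and 2082, against a median of 76.0, a difference of 3.37 ± 0.73 (adjusted p = 0.00152, limma). Usp18 had 332 and 1347, against a median of 19.8, a difference of 3.26 ± 0.72 (adjusted p = 0.00193, limma). The synthetases and the ISG15 protease thus rose together in the lung metastases. Zbp1 (3.21 ± 0.73), Oas3 (3.09 ± 0.90), Lgals3bp (2.96 ± 0.79), Cmpk2 (2.89 ± 0.77), Rtp4 (2.86 ± 0.79), Irf7 (2.83 ± 0.59) and Rsad2 (2.81 ± 0.88) followed.

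Isg15 had 576 and 1793 normalized counts in the lung metastases, against a median of 171 in the clones, a difference of 2.08 ± 0.69 (adjusted p = 0.0342, limma). Ifit1 had 722 and 2609.7 in the lung metastases, against a median of 122, a difference of 2.80 ± 0.94 (adjusted p = 0.0374, limma). Stat2 had 1977 and 4227, against a median of 472, a difference of 2.41 ± 0.46 (adjusted p = 0.000447, limma). Irf1 differed from these 3: it had 985 and 1249.8 in the lung metastases, against a median of 921 and a highest clone of 1883, a difference of 0.13 ± 0.37 (adjusted p = 0.841, limma). Gbp2 had 376 and 1236, against a median of 119.9, a difference of 1.86 ± 0.83 that missed the threshold (adjusted p = 0.119, limma) and passed without clone G (2.03 ± 0.62, adjusted p = 0.0199, limma). All 4 sensors passed, as did 3 of 4 transcription factors, 9 of 10 RNA-directed proteins, 10 of 13 other effectors, 5 of 8 genes of ISG15, ubiquitin and ADP-ribose and 4 of 5 GTPases. The result leaned more on Lung_2 than on Lung_1. Isg15 differed by 1.32 without Lung_2 and by 2.84 without Lung_1, and Ifit1 by 1.92 and 3.68. Calls were lost when either specimen was left out, most of them without Lung_2, with the lone specimen assumed to vary as the others do.

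Lung_2 was the higher of the lung metastases in every gene. Both libraries of Lung_2 lay above both of Lung_1 for 44 of 44 genes, which held for 22.3% of all genes. The ratio of Lung_2 to Lung_1 had a median of 2.35 and ran from 1.27 for Irf1 to 6.85 for Ifi44l, against a median of 1.02 over all genes. Ifit3 (5.80), Oas2 (5.09), Mx1 (4.98), Ifi44 (4.81) and Gbp3 (4.37) had large ratios, and Adar (1.44), Irf9 (1.47) and Oasl1 (1.56) small ones. The summed leukocyte markers had a ratio of 2.84 between the same specimens and the summed macrophage markers a ratio of 2.04.

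**Figure D4:**
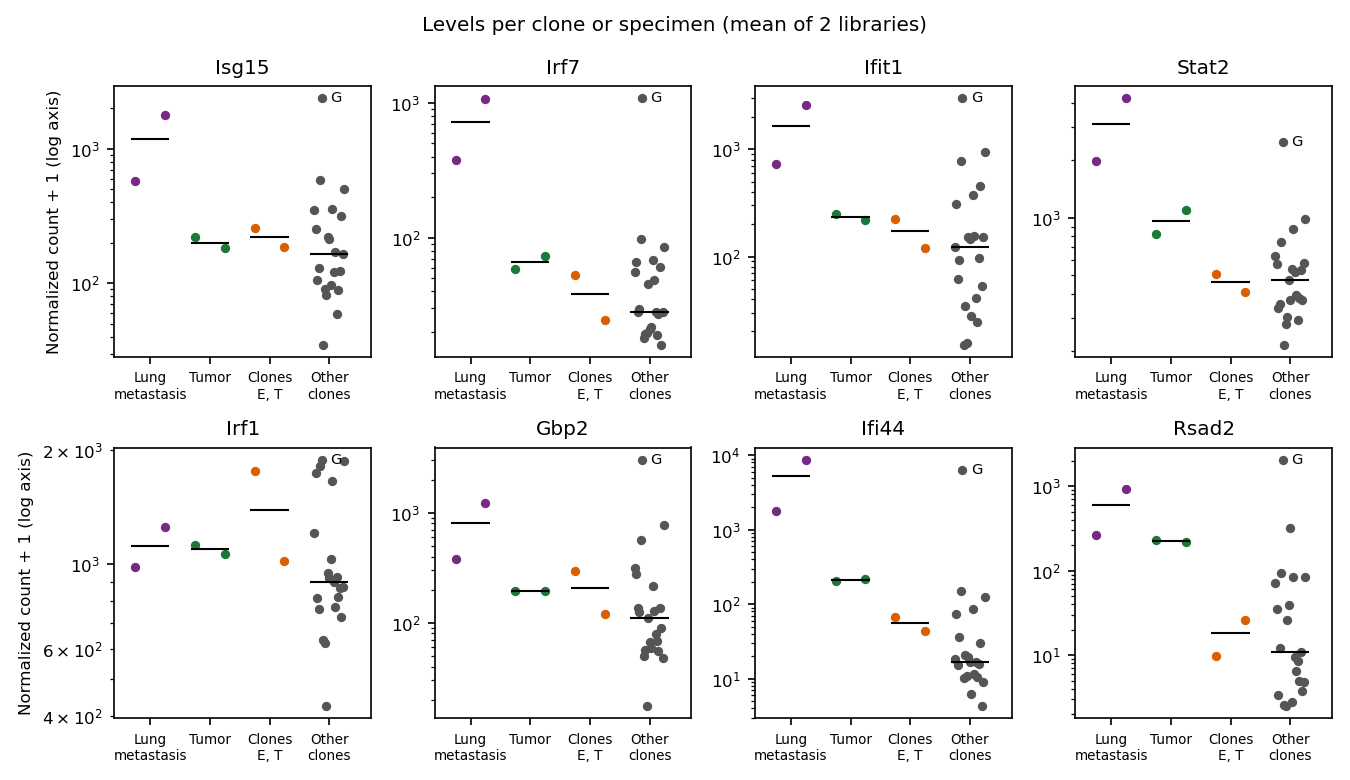
Levels of 8 genes as normalized count + 1 on a log axis, with 1 point per lung metastasis, tumor or clone (the mean of 2 libraries), lines at the median of each group, and clone G named. Lung_2 lies near clone G for Irf7, Ifit1 and Isg15, while the groups overlap for Irf1.

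Set against the orthotopic tumors alone, the lung metastases were again higher. In a fit of the 4 specimens, 38 of the 44 genes were higher in the lung metastases than in the tumors and none was lower, where 16.7% of all genes were higher and 14.8% lower. Ifi44l, Ifi27l2a and Gm4951 reached the level for testing only through the lung libraries, and of the other 41 genes 35 were higher. The median difference was 1.95, against 0.02 for all genes, and it was positive for all 44. All 4 lung libraries lay above all 4 tumor libraries for 38 genes, which held for 17.3% of all genes. For Ifi44l, Ifi27l2a and Gm4951, which are among the 38, this was largely set in advance by the level for testing. The exceptions were Irf1, Ifit2, Rsad2, Bst2, Trim25 and Eif2ak2. The same 6 genes were those that missed the threshold of the test.

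Ifi44 had 1874, 1733, 9889 and 7456 normalized counts in the lung libraries, against 209, 205, 182 and 254 in the tumor libraries, a difference of 3.88 ± 0.54 (SE, adjusted p = 0.00146, limma). Oas2 had 384, 269.6, 1942 and 1389 in the lung libraries, against 25.6, 21.6, 16.5 and 49.1 in the tumor libraries, a difference of 3.37 ± 0.53 (adjusted p = 0.00244, limma). Irf7 had 374, 377, 988 and 1159 in the lung libraries, against 65.5, 49.6, 84.5 and 60.8 in the tumor libraries, a difference of 2.54 ± 0.35 (adjusted p = 0.00140, limma). Each lung library lay above each tumor library for these genes, and both libraries of Lung_2 lay above both of Lung_1. Oas3 (2.70 ± 0.47), Oasl2 (2.69 ± 0.40), Usp18 (2.53 ± 0.46), Rtp4 (2.45 ± 0.27), Zbp1 (2.40 ± 0.47), Dhx58 and Xaf1 (2.36 ± 0.29 each), Oas1a (2.32 ± 0.30) and Ifit1 (2.30 ± 0.44) followed.

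Isg15 had 601, 552, 1455 and 2131 normalized counts in the lung libraries, against 212, 224, 232 and 129.7 in the tumor libraries, a difference of 2.07 ± 0.38 (adjusted p = 0.00498, limma). Stat2 had 2092, 1861, 4614 and 3841 in the lung libraries, against 855, 794, 783 and 1406 in the tumor libraries, a difference of 1.57 ± 0.29 (adjusted p = 0.00483, limma). Gbp2 had 377, 374, 1267 and 1205 in the lung libraries, against 209, 181, 207 and 176 in the tumor libraries, a difference of 1.57 ± 0.39 (adjusted p = 0.0172, limma). No lung library of these 3 genes reached down to a tumor library. Irf1 had 1046, 923, 1157 and 1342 in the lung libraries, against 1147, 1097, 1015 and 1115 in the tumor libraries, a difference of 0.02 ± 0.13 (adjusted p = 0.927, limma), and the groups overlapped. With 2 specimens a side the count depended on the fit: it was 18 with no filter on low values, 19 without the libraries lettered A, 10 without Tumor_1, 15 without Tumor_2 and 0 in the fit of 27 values, where the spread between clones enters the error.

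Markers of several host cell types were higher in the lung metastases than in the clones, and their part in these differences was not tested. Against the tumors fewer were called higher, 2 of 6 leukocyte, 1 of 6 fibroblast and 1 of 4 endothelial markers, where 16.7% of all genes were. Of 10 macrophage markers 4 were higher than in the tumors, among them Fcgr1, which reached the level for testing only through the lung libraries. Cd14 was lower there (-0.39 ± 0.11, adjusted p = 0.0303, limma). All 6 leukocyte markers were higher in the lung metastases than in the clones, 4 of which (Ptprc, Lcp2, Laptm5 and Tyrobp) reached the level for testing only through the specimens and so had to differ, with sums of 159 in Lung_1 and 450.2 in Lung_2, against 119 in Tumor_1, 97.9 in Tumor_2 and 5.14 to 34.5 in the clones other than G. Of 10 macrophage markers 7 were higher than in the clones, and 6 of the 10 reached the level for testing only through the specimens, with sums of 1465 and 2989.9 in the lung metastases, against 1222 and 1027 in the tumors. Lyz2, the lysozyme of macrophages and neutrophils, had 851 and 1831 in the lung metastases and 517 and 337 in the tumors, against at most 6.48 in any clone. All 6 tested fibroblast markers were higher than in the clones, with sums of 1662 and 4479 in the lung metastases, against 781 and 681 in the tumors, and all 4 tested endothelial markers were higher, where 1 fibroblast and 3 endothelial markers reached the level only through the specimens, with endothelial sums of 115 and 129 in the lung metastases, against 61.4 and 74.0 in the tumors. The 7 T and NK markers summed to 12.3 and 3.31 in the lung metastases and the 3 B cell markers to 8.08 and 4.13, with no T or NK marker reaching the level for testing and no B cell marker called. Of 2 tested neutrophil markers none was higher than in the clones, and S100a8 was higher in the lung metastases than in the tumors. Neutrophil markers summed to 54.7 and 47.5 in the lung metastases, against 19.9 and 23.6 in the tumors and up to 95.3 in the clones other than G. Of the plasmacytoid dendritic cell markers Ccr9 was higher than in the clones, as was Bst2, which is also on the list of 44, while Siglech, the defining one, had 1.35 and 0.414 in the lung metastases. The fourth marker, Tcf4, did not pass against the clones (0.66 ± 0.38, adjusted p = 0.235, limma). It was higher in the lung metastases than in the tumors (0.94 ± 0.12, adjusted p = 0.00105, limma), where Ccr9 and Bst2 did not pass. The 7 lung epithelium markers summed to 30.6 and 35.5 in the lung metastases, against 20.3 and 42.3 in the tumors and 16.1 to 60.2 in the clones, with none called. The 4 epithelial markers of the carcinoma summed to 21398 and 15035 in the lung metastases, against 25655 and 22938 in the tumors, but the sum hides differences between the markers. Epcam was lower in the lung metastases than in the tumors, with a difference of -2.46 ± 0.15 (adjusted p = 2.75e-05, limma), with 631 and 473 in the lung metastases, against 3574 and 3173 in the tumors. Cdh1 was lower with a difference of -2.22 ± 0.21 (adjusted p = 0.000266, limma), while Krt8 (0.46 ± 0.15) and Krt18 (0.28 ± 0.19) did not pass.

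The tumors lay closer to the clones than the lung metastases did in median difference. None of the 44 genes passed in the comparison of the 2 tumors with the 23 clones, where 7.46% of all genes passed in either direction, and 1 gene had an unadjusted p under 0.05. That gene was Rsad2, with 231 and 216 normalized counts in the tumors, against a median of 10 in the clones, a difference of 1.82 ± 0.88 (adjusted p = 0.243, limma). The differences were positive for 40 of 44 genes, with a median of 0.39 against 0.05 for all genes. Each tumor lay above the median of the 22 clones other than G for 41 genes, and above all of those clones for 7 genes in Tumor_1 and 10 in Tumor_2. Without clone G, 6 genes were higher in the tumors, namely Rsad2, Ifi44, Bst2, Oas2, Eif2ak2 and Gm4951. With clone G left out, Oas2 and Gm4951 reached the level for testing only through the specimens. The shares over all genes for this count, and for the counts of genes above the clones, are not given here. These counts are therefore not read as particular to the list.

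Isg15 had 218 and 181 normalized counts in the tumors, against a median of 171 in the clones, a difference of 0.01 ± 0.69 (adjusted p = 0.998, limma). Ifit1 had 248 and 218 in the tumors, against a median of 122, a difference of 0.51 ± 0.94 (adjusted p = 0.834, limma). Irf7 had 57.5 and 72.6, against a median of 27.1, a difference of 0.29 ± 0.59 (adjusted p = 0.851, limma). These 3 genes sat inside the range of the clones other than G. Stat2 had 824 and 1095 in the tumors, against a median of 472, a difference of 0.84 ± 0.46 (adjusted p = 0.315, limma). Irf1 had 1122 and 1065, against a median of 921, a difference of 0.11 ± 0.37 (adjusted p = 0.912, limma). Gbp2 had 195 and 192, against a median of 119.9, a difference of 0.29 ± 0.83 (adjusted p = 0.900, limma). The spread between the 23 clones enters these standard errors.

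**Figure D5:**
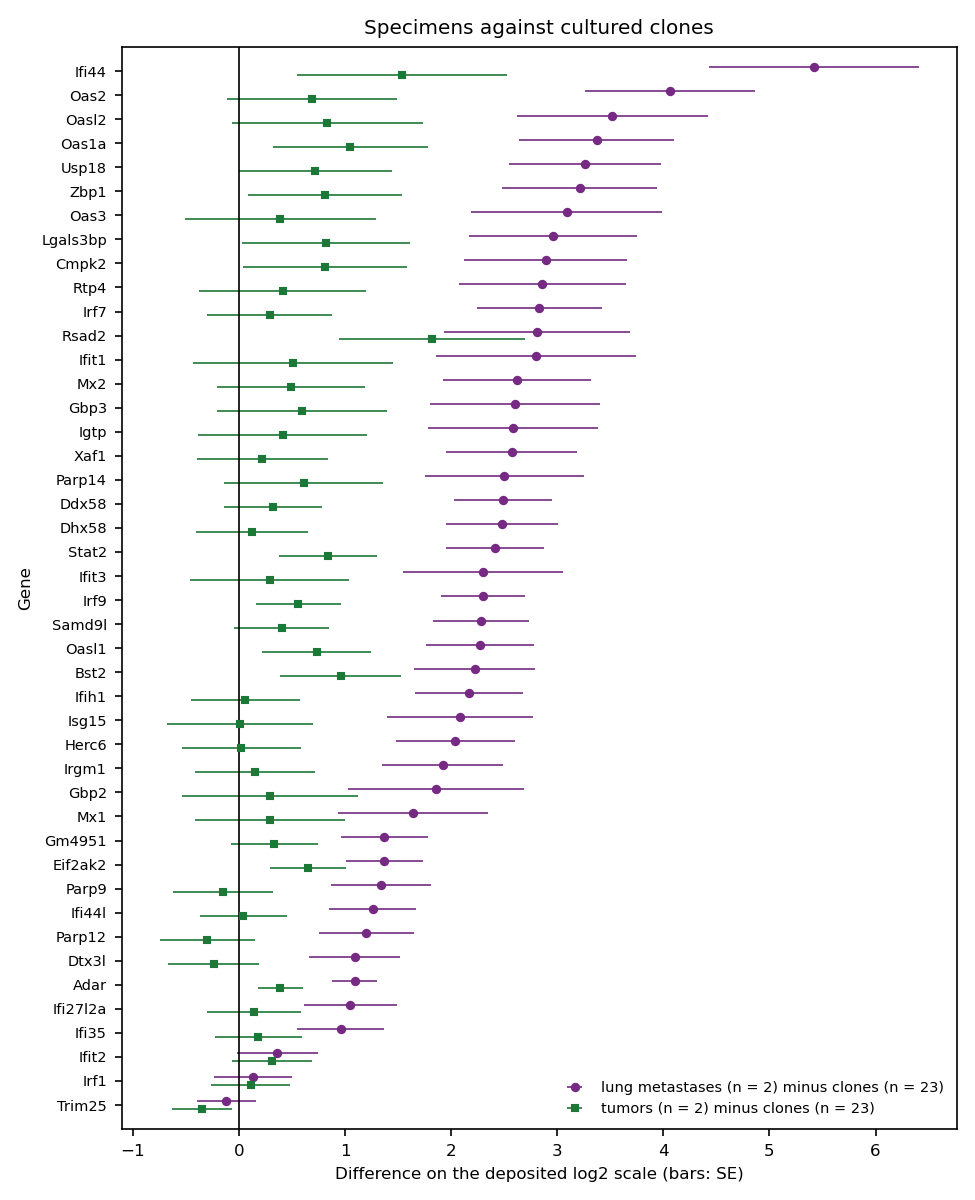
Difference of each gene between the 2 lung metastases and the 23 clones (circles) and between the 2 tumors and the 23 clones (squares) on the deposited log2 scale, with bars of 1 SE, ordered by the lung difference. The circles run from -0.12 for Trim25 to 5.42 for Ifi44, and the squares run from -0.35 for Trim25 to 1.82 for Rsad2.

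Between the intravasating clones and the others no gene of the list passed the test. None of the 44 genes passed in either direction on 1 value per clone, where 0% of all 13614 genes passed, and none of the 44 had an unadjusted p under 0.05, against 109 of all genes, by limma, the tool used here. The differences ran from -0.35 for Rsad2 to 0.86 for Lgals3bp, with 22 positive and 22 negative. Lgals3bp had 2035 in clone E and 1817 in clone T, while the other 21 clones ran from 92.2 over a median of 909 to 7842. Isg15 had 257 in E and 186 in T, while the others ran from 34.0 over 164 to 2373, a difference of 0.12 ± 0.71. Ifit1 had 224 in E and 118 in T, where the others had a median of 122, a difference of 0.12 ± 0.99. Both clones sat within the range of the non-intravasating clones for these genes. Irf7 (51.4 in E and 23.3 in T, with 27.1 the median of the others) differed by -0.17 ± 0.61, Stat2 (509 and 410.1, against 472) by -0.11 ± 0.48, Irf1 (1760.4 and 1019, against 898) by 0.42 ± 0.38 and Gbp2 (295 and 119.9, against 109.8) by 0.29 ± 0.86, all with an adjusted p of 1.000 in limma.

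The 2 intravasating clones differed from each other. In clone E 12 genes were higher than in clone T and 1 was lower, where 15.3% of all genes were higher and 13.4% lower, and the median difference over the 44 genes was 0.25. Gbp2 had 232 and 358 normalized counts in clone E, against 109.7 and 130.0 in clone T, a difference of 0.97 ± 0.16 (adjusted p = 2.42e-05, limma). Irf1 had 1477 and 2044 in clone E, against 1069.9 and 967 in clone T, a difference of 0.74 ± 0.12 (adjusted p = 2.57e-05, limma). Ifit1 had 197 and 251 in clone E, against 137 and 98.3 in clone T, a difference of 0.69 ± 0.17 (adjusted p = 0.00219, limma). Clone E was the higher clone in both libraries for these 3 genes. Irf7 had 44.3 and 58.5 in clone E, against 26.5 and 20.1 in clone T, a difference of 0.52 ± 0.14 (adjusted p = 0.00546, limma). Oasl2 (0.93 ± 0.18), Igtp (0.83 ± 0.15), Rtp4 (0.82 ± 0.15), Parp9 (0.53 ± 0.12), Dhx58 (0.52 ± 0.16), Dtx3l (0.37 ± 0.13) and Xaf1 (0.36 ± 0.12) were also higher in E. The remaining gene, Mx1, rests on a few reads, with 2.55 and 4.00 normalized counts in E and 0 in both libraries of T, and its call (0.45 ± 0.15, adjusted p = 0.0258, limma) was lost without any 1 of the 4 libraries, with adjusted p of 0.0599 to 0.138. Oasl1 was lower in E, with 159 and 179 in E against 262 and 240.0 in T, a difference of -0.45 ± 0.13 (adjusted p = 0.0103, limma). The calls of Ifit1, Irf7, Dhx58, Dtx3l and Oasl1 were also lost when certain single libraries were left out. Without the library of E lettered B the difference was 0.55 for Ifit1, 0.42 for Irf7, 0.22 for Dhx58 and 0.23 for Dtx3l. For Oasl1 it was -0.39 without the library lettered A of either clone. Isg15 had 179 and 336 in E, against 187 and 185 in T, which did not pass (0.32 ± 0.19, adjusted p = 0.203, limma), nor did Stat2 (0.29 ± 0.13, adjusted p = 0.0975). Isg15 passed without the library of E lettered A (adjusted p = 0.0133) and Stat2 without that of T lettered B (adjusted p = 0.0186). The number of higher genes was 6 without the library of clone E lettered B.

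The interferons themselves were hardly expressed in any sample. Ifnb1, the gene of interferon beta, had 5.03 normalized counts in clone G, at most 0.765 in any other clone, 1.35 and 2.06 in the lung metastases and 2.28 and 0.584 in the tumors. The 17 listed interferon genes that were found summed to 66.1 and 53.3 in the lung metastases, 41.1 and 64.6 in the tumors, 13.1 in clone G and 7.82 to 39.3 in the other 22 clones. Ifnk, an interferon of keratinocytes, was higher in the lung metastases than in the clones (0.83 ± 0.12) and in the tumors than in the clones (0.46 ± 0.12), at 41.1 and 37.2 in the lung metastases and 14.9 and 29.5 in the tumors, against a median of 6.33. It was the only called gene of the 3 tested in these comparisons. At this depth a gene with a few reads cannot be ranked between samples.

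The receptors were expressed in all samples. Ifnar1 and Ifnar2 had 1520.4 and 2055 normalized counts in clone G, against medians of 902 and 527 over the 23 clones, and clone G was the highest clone for both. In the lung metastases Ifnar1 had 840.3 and 864 and Ifnar2 604 and 689, and in the tumors Ifnar1 had 704 and 705 and Ifnar2 995 and 1006. Ifnar2 was lower in the lung metastases than in the tumors (-0.59 ± 0.11, adjusted p = 0.00591, limma), as were Ifngr1 (-0.51 ± 0.12) and Ifngr2 (-0.41 ± 0.13), the subunits of the interferon gamma receptor. Ifnar1 did not pass (0.25 ± 0.10, adjusted p = 0.103, limma). Other signalling genes were higher in the lung metastases than in the tumors, among them Socs3 (0.95 ± 0.21), Pias1 (0.81 ± 0.10), Tyk2 (0.55 ± 0.14) and Jak1 (0.38 ± 0.12).

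Socs3, an inhibitor of cytokine signalling, had 375 and 657 normalized counts in the lung metastases, against a median of 184 in the clones, and was higher there by 1.17 ± 0.35 (adjusted p = 0.0174, limma). In clone G 9 of the 13 listed genes of receptors and signalling were higher, where 29.4% of all genes were, and 1, Jak1, was lower. Mavs, the adaptor of the RNA helicases, had 693 and 606 in the lung metastases, 673 and 760.1 in the tumors and 817 in clone G, against a median of 556, and did not pass in the lung comparisons. Of 11 sensors and adaptors outside the list, Ticam1 (0.73 ± 0.21) and Trex1 (1.29 ± 0.25) were higher in the lung metastases than in the clones, a share of 18.2% near the 12.4% of all genes, and 7 were higher in clone G, where 29.4% of all genes were.

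Interferon-induced genes outside the list were also higher in the lung metastases and in clone G. Of 51 such genes tested, 31 were higher in the lung metastases than in the clones and none was lower, where 12.4% of all genes were higher. Against the tumors 38 were higher and 1 lower in the lung metastases, where 16.7% of all genes were higher and 14.8% lower. Slfn5 in the first comparison and Ifitm1 in the second reached the level for testing only through the specimens or the lung libraries. Cxcl10, a chemokine that attracts T cells, had 479 and 1004 normalized counts in the lung metastases and 361 and 265 in the tumors, against a median of 78.8 in the clones. Tap1, the peptide pump of antigen presentation, had 406 and 749 in the lung metastases and 204 and 210.4 in the tumors, against a median of 118. Both were higher in the lung metastases than in the clones, Cxcl10 by 2.20 ± 0.55 (adjusted p = 0.00518, limma) and Tap1 by 1.96 ± 0.48 (adjusted p = 0.00465). Slfn5 had 14.7 and 17.2 normalized counts in the tumors, against a median of 4.00 in the clones. It was called higher in the tumors, but here too it reached the level for testing only through the specimens. None of the other 50 genes was higher in the tumors, where 3.87% of all genes that reached the level in the clones were. In clone G 44 of 50 were higher than in the other 22 clones and 1, Tap2, was lower, where 29.4% of all genes were higher. Of these, Ifitm1, Iigp1 and Cxcl9 reached the level for testing only through clone G, and of the other 47 genes 41 were higher. Ifitm3, which blocks the fusion of virus with endosomes, reached 26209.8 in clone G, against a median of 4954 over the 23 clones.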

How the data were processed

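Per the labels' protocols, cDNA was made from total RNA by amplification with a NuGEN kit and sequenced. The tools named are DESeq, HTSeq and Bowtie2, and the build is mm10, per the submitters' processing notes. Tool versions, strandedness and the treatment of multiply mapped reads were not given in the sources used here. The authors deposited 1 table of log2 values for 23481 genes and 54 libraries. Read from the values, these follow a variance-stabilising curve that puts a gene without reads at 5.03, so a low gene's difference understates its ratio of counts. Normalized counts were obtained by inverting it, and division by what 1 read is worth gave whole reads, within 0.01, for 100.0% of values under 200 reads. In 27 rows the symbol had become a date, and these were left out.

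Tests ran in R 4.3.3 with limma 3.58.1 on the deposited log2 values, two-sided, with the variance allowed to follow the mean and Benjamini-Hochberg adjustment over all genes with at least 10 normalized counts in at least 2 libraries of the comparison. Since the deposited unit is log2, no count model was fitted. Lung metastases, tumors and intravasating clones were compared on 1 value per clone or specimen, the mean of 2 libraries, and single clones on libraries. The fits were checked on simulated data. The library pairs of a clone or specimen correlated with r of 0.981 to 0.998, and 0 pairs were identical. The members, gene lists, tests and alternatives were chosen with earlier results of these data known. All 44 genes may be named. Levels over the clones were given for the 42 with a span of at least 2 (log2) over clones and at least 50 counts in the highest. Of these, Oas2, Mx1 and Mx2 were given without the lowest clone, and Ifi44l, Ifi27l2a and Gm4951 without the lowest clone and the median. Up to 12 called genes are named per comparison in order of their difference, with Isg15, Irf7, Ifit1, Stat2, Irf1 and Gbp2 in each. Of the pathway lists, called genes may be named, and Ifnb1, the receptor genes and Mavs always were. A result for 1 listed gene is not reported here. Alternatives changed the scale, the filter, the variance trend, the library medians or the replicate block, or left out a library, clone or specimen. The listed symbols Ifna15, Ifna16, Il28a, Il28b, Il28ra, Adgre1 and Ly6g did not match a row and were not analysed here. Gene lengths and promoters are from RefSeq for GRCm38.p6.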

Additional observations from a re-analysis of the deposited data

How the results depend on the processing

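With each alternative, the counts for intravasating against other clones were 0. In clone G 44 genes were higher with the replicate block as without it. The scale of log2(normalized count + 1), no trend of the variance and equal library medians kept the count of each comparison and the totals over the 23 clones within 1.5 times of the reported ones. For single clones against the others, the log2(normalized count + 1) scale gave fewer lower genes, 10 in D, 3 in K, 12 in L, 5 in S, 4 in T, 2 in A and 0 in E, and equal medians gave 3 higher genes in Q, 2 higher in P, 2 lower in F and 1 lower in N. The count of genes higher in the lung metastases than in the clones was 23 without Lung_1 and 1 without Lung_2. Against the tumors it was 18 with no filter on low values, 10 without Tumor_1, 15 without Tumor_2, 0 in the fit of 27 values, and 19 to 40 when the libraries of 1 letter were left out. The count of genes higher in the tumors than in the clones was 6 without clone G. The median correlation across clones was 0.63 without clone G for Pearson's r and for Spearman's rho. Leaving out 1 library of clone E or T gave 6 to 14 higher and 0 to 2 lower genes. A lone specimen was assumed to vary like the others, and the cause of these changes was not tested.

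The differences that changed sign were all of genes past no threshold. For intravasating clones, Isg15 became -0.10 without the libraries lettered B (0.34 without those lettered A) and -0.04 without clone E, Ifit1 -0.23 and Gbp2 -0.19 without clone E, Irf7 0.09 without clone T and 0.01 without clone G, and Stat2 0.04 without clone T and 0.00 without clone G. For tumors against clones, Isg15 became -0.03 with equal medians and -0.12 without the libraries lettered A (0.13 without those lettered B) or without Tumor_1. Irf1 became -0.03 in the lung metastases against clones without Lung_2, and against tumors -0.00 with equal medians, -0.14 without Lung_2 and -0.02 without Tumor_2. Isg15 became -0.04 in clone E against T without the library of E lettered B and 0.69 without that lettered A. Of the other values of named genes under an alternative, 499 stayed on the same side of the threshold, 89 lost the call and 4 gained it.

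The letters A and B did not pair the libraries in a uniform way. Over 351 pairs of clones or specimens, the correlation of their differences between letters had a median of 0.049 and ran from -0.649 to 0.618. It was above 0.1 in 139 pairs, so an effect of the letter in some of them is not excluded. Library A had reads in more genes than library B in Lung_1 (20278 against 16604) and in Lung_2 (19868 against 16972). With the letter as a replicate block, 41 genes were higher in the lung metastases than in the clones, 39 than in the tumors, 13 higher and 1 lower in clone E than in T, 44 differed between clones, Gbp2 passed in the lung metastases against clones (adjusted p = 0.0242, limma), and 0 passed for tumors or intravasating clones.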

Other observations

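Between the intravasating clones, genes of interferon signalling outside the list also differed. Jak2, a kinase of the interferon gamma receptor, had a normalized count of 3871 in clone E and of 1366 in clone T, a difference of 1.39 ± 0.16 (SE, adjusted p = 6.08e-08, limma). Ifnar1 had 986 in clone E and 697 in clone T (0.46 ± 0.09, adjusted p = 0.000237, limma), and Socs3 had 295 in clone E and 179 in clone T (0.56 ± 0.14, adjusted p = 0.00240, limma). Of the 13 genes of receptors and signalling 4 were higher in clone E and 1, Jak1, was lower, where 15.3% of all genes were higher and 13.4% lower. Of 50 other interferon-induced genes 19 were higher in clone E than in clone T and 5 lower, a number of lower genes near the share over all genes, and Cxcl10 was among the lower ones, with 127 in clone E and 199.7 in clone T (-0.49 ± 0.14, adjusted p = 0.00746, limma).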
